A study of Rattus norvegicus with 6 samples.

Results

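The pineal gland of the adult rat was compared with total brain across the genes that the array platform names singly. The comparison rests on 3 of the 6 one-colour arrays of the series, 2 of pineal gland and 1 of total brain, all from adult male Sprague-Dawley rats that the labels call normal, with no treatment or genetic change. Of 35129 probes, 16865 carried 1 gene symbol, 16796 of these had a value on all 6 arrays, and they stood for 12167 genes. The other 3 arrays of the series held ependyma of the third ventricle and the subfornical and subcommissural organs. The gland was cut from tissue sections with a laser, so the sample holds whatever cells lay inside the outline: pinealocytes, vessels, glia and nerve endings. Total brain was a pool of an unstated number of brains, which mixes neurons, glia, vessels, ventricle linings and choroid plexus of all regions, and whether those brains still held the gland is not stated. Nor is it stated whether the pair of pineal gland arrays came from different animals, or at what hour the tissue was taken. The p-values below therefore cover the variation within that pair alone, and this may be technical. Each sample started from 3 ng of total RNA, and 2 rounds of in vitro transcription amplified it before hybridisation.

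The pineal gland makes melatonin, the hormone of darkness, from tryptophan by way of serotonin. Its main cell, the pinealocyte, shares its ancestry with the retinal photoreceptor, and in fish, amphibians and birds the cell itself senses light. In mammals it no longer responds to light directly and is driven by sympathetic nerves that release noradrenaline at night, which raises cyclic AMP in the cell. The mammalian gland lies outside the blood-brain barrier, holds few neurons and little myelin.

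Levels are given as the deposited linear intensity, which has no named unit. Array medians were 1.05 and 1.05 for the pineal gland and 1.07 for total brain, while the 75th percentiles were 5.78 and 4.90 for the pineal gland and 7.93 for total brain. A gene counted as measured where the pineal gland mean or total brain reached 1.05, the median over all 6 arrays, which 9072 genes did. The first pineal gland array was higher than the second by a median of 0.41 on the log2 scale, with a standard deviation of 0.75 over measured genes. Each difference below is the mean log2 level of the 2 pineal gland arrays minus that of total brain, so that a positive one is higher in the pineal gland. Where the lower side of a fold lay under 1.05 it was raised to that value and the fold is written as "at least". The tissue labels fitted the 4 marker genes checked first. Tph1, Asmt and Pdc, which mark pinealocytes, were at 547 and 352, at 80.4 and 72.4, and at 392 and 256 on the pineal gland arrays, against 1.91, 0.159 and 0.586 in total brain. Mog, a surface protein of myelin, was at 0.389 and 0.703 in the pineal gland, against 285 in total brain.

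The gland differed from total brain in both directions, and more genes were lower than higher. By limma (Benjamini-Hochberg adjusted p under 0.05), 696 of the 9072 measured genes (7.67%) rose in the pineal gland and 1464 (16.1%) fell, 23.8% in either direction. Counted by size alone, 609 genes (6.71%) were at least 4-fold higher and 1291 (14.2%) at least 4-fold lower, and 378 (4.17%) and 1022 (11.3%) were so with the lower side at the bound. With the bound, 68 genes rose and 227 fell at least 16-fold, and 21 rose and 43 fell at least 64-fold. Of the genes that rose, 452 lay under 1.05 in total brain, and of those that fell, 662 lay under it in the pineal gland, so their true folds are not known. The limma fit has 1 residual degree of freedom, from the pineal gland pair, and assumes that the lone total brain array varies like that pair. Its moderated standard error was 0.72 on the log2 scale for every gene, so a call amounts to a size of at least 1.82, or 3.53-fold, and p-values beyond that add nothing.

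The split between the directions moved with the scaling of the arrays. The median difference over all measured genes was -0.45, and it became 0.03 after quantile normalization and 0.17 with each array divided by its 75th percentile. Genes that rose made up 32.2% of the calls with the deposited values, 47.4% after quantile normalization (570 rose and 632 fell) and 55.0% with 75th percentile scaling (998 rose and 816 fell). Which side holds more genes therefore flips under the last of these, whereas 0 of the called genes turned to the other direction under either scaling. List medians below are to be set beside that median of all genes, which was -0.35 with unmeasured genes included. Folds and calls are measured from 0 and are not shifted by it. Each gene list below has 2 medians in a fixed order, the first over its measured members and the second over all its members on the array. The background for every count of calls below is the share over all measured genes, 7.67% higher, 16.1% lower and 23.8% either way. A call is said to hold where limma also made it under each of 4 other settings, which are quantile normalization, 75th percentile scaling, no filter on low levels and an intensity trend in the variance. Under each of these the standard error differed between genes, up to 2.65 after quantile normalization and 2.22 without the filter. The differences stay the same without the filter and with the trend, so a call lost there does not mean a smaller difference.

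**Figure D1:**
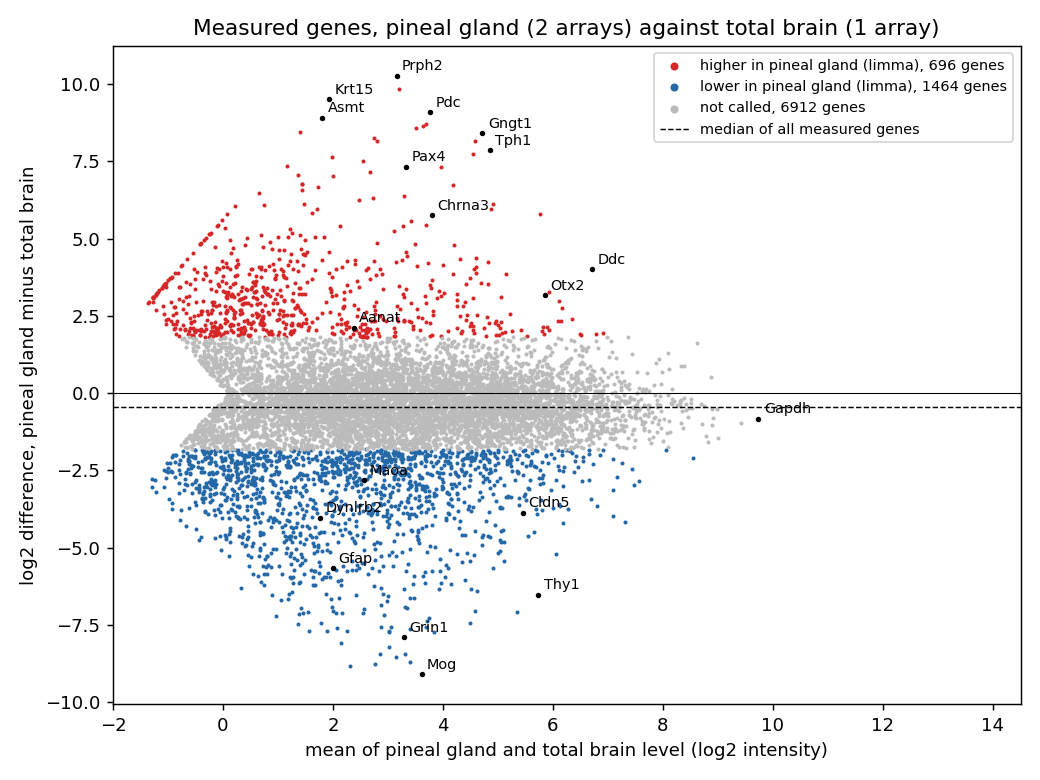
Each point is 1 of the 9072 measured genes, placed by its mean level in pineal gland and total brain (log2 intensity, x axis) and by its log2 difference, pineal gland minus total brain (y axis). Red points are the 696 genes higher and blue points the 1464 genes lower in the pineal gland by limma, and the dashed line is the median of all measured genes, -0.45. The called genes start at the same distance from 0 at every level.

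**Figure D2:**
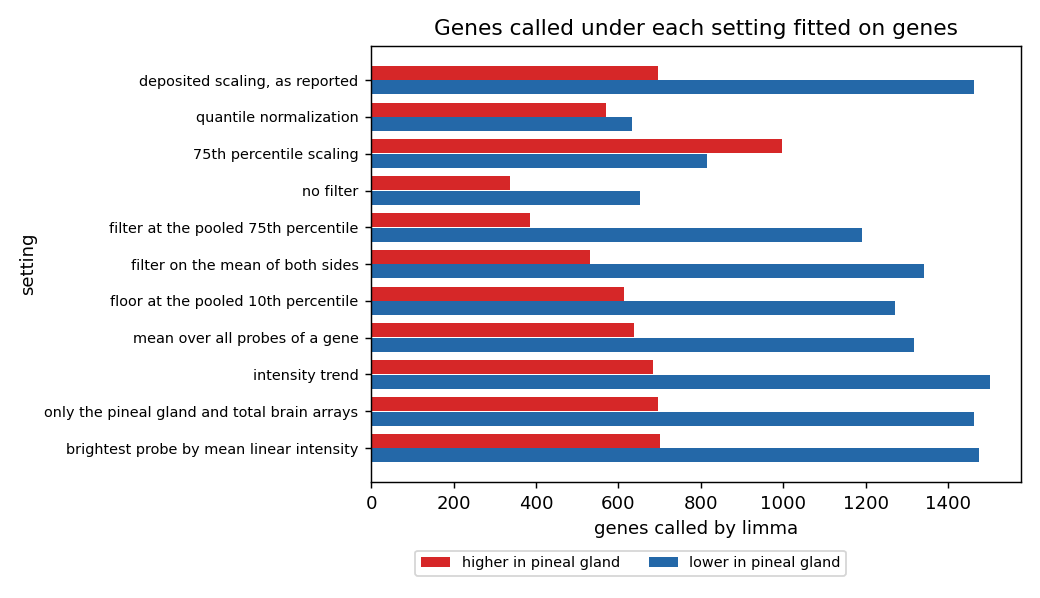
Bars give the number of genes called higher (red) and lower (blue) in the pineal gland under each processing setting, on an axis that starts at 0. Higher genes run between 338 without a filter and 998 with 75th percentile scaling, and lower genes outnumber them in each setting drawn except that scaling.

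The enzymes that turn tryptophan into melatonin rose. Of 14 genes of serotonin and melatonin synthesis on the array, 12 were measured, 5 rose and 1 fell (medians 1.12 and 0.66, against -0.45 over all measured genes), and 4 of the 5 rises held. Tph1, tryptophan hydroxylase, takes the rate-limiting first step to serotonin, and its values above make it 230-fold higher. Ddc, the decarboxylase that completes serotonin, was at 491 and 363 in the pineal gland, against 26.1 in total brain, and rose 16.1-fold. Aanat, the acetyltransferase whose activity sets the nightly rise of melatonin, was at 10.9 and 10.7 in the pineal gland, against 2.50 in total brain. This 4.32-fold rise is the smallest of the 5 by the difference without the bound, with an adjusted p of 0.0185 by limma. It was not called without the filter on low levels (adjusted p of 0.10 by limma). Asmt, the methyltransferase that makes melatonin from N-acetylserotonin, was at least 72.6-fold higher. Gch1, which makes the first committed step to tetrahydrobiopterin, the cofactor of tryptophan hydroxylase, was at 4.31 and 3.69 in the pineal gland, against 0.0710 in total brain, and rose at least 3.80-fold. The remaining steps of cofactor synthesis and recycling were not called: Pts, a synthase, was at 58.2 and 97.8 against 49.7, Spr, sepiapterin reductase, at 1.67 and 2.45 against 1.74, and Qdpr, which recycles the cofactor, at 78.5 and 55.9 against 144 in total brain. Gchfr, the feedback regulator of Gch1, lay around the array median on each of the 3 arrays. Among enzymes that break serotonin down, Maoa fell 7.06-fold, with 1.89 and 2.63 in the pineal gland, against 15.8 in total brain. That call was not made after quantile normalization, where limma gave an adjusted p of 0.0549. Maob, the form known in rat pinealocytes, was at 7.67 and 2.22, on either side of 3.10 in total brain. The vesicular amine transporter Slc18a2 was at 1.39 and 1.60 in the pineal gland, against 0.481 in total brain, and did not pass the test. Tph2, the hydroxylase of serotonin neurons, was not measured.

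Genes that supply these enzymes moved both ways. Of 9 measured genes of tryptophan and amino acid uptake, 2 rose and 4 fell (medians -0.34 and -0.11). The first median turns to 0.22 and 0.23 with the other scalings, and 1 of the rises and 0 of the falls held. Slc7a5, a carrier of large neutral amino acids such as tryptophan, was at 10.1 and 4.61 in the pineal gland, against 0.864 in total brain, a rise of at least 6.49-fold, and its partner chain Slc3a2 was at 85.1 and 48.5, against 81.3. Slc6a6, the carrier of taurine, an amino acid that the gland is known to hold in quantity, was at 128 and 71.7 in the pineal gland, against 8.29 in total brain, and rose 11.6-fold. It was not called with the mean over all its probes (a log2 difference of 1.635). Slc7a1, which carries arginine and lysine, was at 11.06 and 2.243, far apart, in the pineal gland, against 59.15 in total brain, a fall of 11.9-fold. Slc38a2, a glutamine carrier, fell 5.13-fold. Neither of these calls was made after quantile normalization, with 75th percentile scaling or without the filter. The serotonin transporter Slc6a4 was at 0.599 and 0.399 in the pineal gland, against 2.99 in total brain, and fell at least 2.85-fold. The methyl groups that Asmt uses come from S-adenosylmethionine, and of 7 measured genes of that supply 2 rose and 0 fell (medians 0.66 and 0.57), a share of 28.6% called, near the 23.8% over all genes, and 0 of the rises held. Mat2a, which makes S-adenosylmethionine, was at 32.5 and 20.5 in the pineal gland, against 7.20 in total brain, a 3.59-fold rise just past the smallest size called (adjusted p of 0.0466 by limma). It was not called without the filter on low levels. Shmt1, which feeds the folate cycle, rose at least 1.59-fold, a call not made after quantile normalization or without the filter (adjusted p of 0.0702 and 0.0622 by limma).

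Of 29 phototransduction genes on the array, 24 were measured, 16 rose and 1 fell (medians 4.77 and 3.70), and 5 were not measured on either side. With low values raised to the bound, the median over all 29 was 0.84. The share called was 70.8%, against 23.8% over all genes. At the head of the cascade, Opn1sw, the short-wave cone opsin, was at 59.9 and 38.7 in the pineal gland, against 2.77 in total brain, and rose 17.4-fold. Of the G protein that opsin activates, the cone alpha subunit Gnat2 was at 264 and 238 in the pineal gland, against 0.624 in total brain, a rise of at least 239-fold. The rod alpha subunit Gnat1 was at 2.13 and 1.66 against 0.0414, at least 1.79-fold higher. Gnb3, the cone beta subunit, was at 421 and 391 in the pineal gland, against 7.36 in total brain, and rose 55.1-fold. Gnb1, the beta subunit of rods and of many other cells, was at 154 and 110 in the pineal gland, against 159 in total brain, and was not called. Both gamma subunits rose: Gngt1, of rods, was at 444 and 531 in the pineal gland, against 1.42 in total brain (341-fold), and Gngt2, of cones, at 366 and 444, against 1.42 (284-fold).

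Next in the cascade stand the phosphodiesterase, the channel it controls and the cyclase that refills cyclic GMP. Pde6c, the catalytic subunit of the cone phosphodiesterase that removes cyclic GMP, was at 143 and 96.2 in the pineal gland, against 0.384 in total brain, a rise of at least 112-fold. Its rod counterpart Pde6b was at 4.64 and 2.73 in the pineal gland, against 2.15 in total brain, and was not called, and the rod gene Pde6a was not measured. The cone inhibitory subunit Pde6h rose at least 1.79-fold, with 1.72 and 2.05 in the pineal gland and 0.174 in total brain. On the ependyma array it stood at 38.2. Of the cyclic nucleotide-gated channel, the beta subunit Cngb1 was at 14.3 and 8.54 in the pineal gland, against 0.850 in total brain, a rise of at least 10.5-fold, whereas the alpha subunits Cnga1 and Cnga3 were under the array median in both tissues. Guca1a and Guca1b, calcium sensors that switch on guanylate cyclase, rose 62.7-fold and 82.7-fold, with 227 and 235, and 112 and 70.6, in the pineal gland and 3.69 and 1.07 in total brain. The cyclase gene Gucy2d was at 1.55 and 1.21 in the pineal gland, against 0.449 in total brain, and did not pass. Slc24a2, a sodium, calcium and potassium exchanger of cones that brain neurons also use, was the member that fell, 8.34-fold, with 3.27 and 2.17 against 22.2.

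Of the genes that shut the light response off, Sag, Arr3, Grk1, Pdc and Rgs9 rose. Sag, arrestin of rods, was at 338 and 338 in the pineal gland, against 1.61 in total brain, a 210-fold rise. Arr3, arrestin of cones, was at 5.01 and 7.34 against 0.0608, at least 5.77-fold higher. Grk1, rhodopsin kinase, was at 101 and 57.6 in the pineal gland, against 0.536 in total brain, a rise of at least 72.5-fold. Pdc, phosducin, which binds the beta and gamma subunits of the G protein, was at least 301.5-fold higher. Rgs9, which speeds the return of the G protein to rest, was at 211 and 166 in the pineal gland, against 1.76 in total brain, and rose 106-fold. Another measured Rgs9 probe was at 1.65 and 1.45 in the pineal gland, against 2.45 in total brain, so the probes of this gene disagree. Its partner Gnb5 was at 2.83 and 3.19 against 4.87, and recoverin, Rcvrn, a calcium sensor that restrains the kinase, at 2.51 and 1.20, on either side of 1.70 in total brain. Of the 16 rises in phototransduction, with Rgs9 counted by its brightest probe, 16 held.

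**Figure D3:**
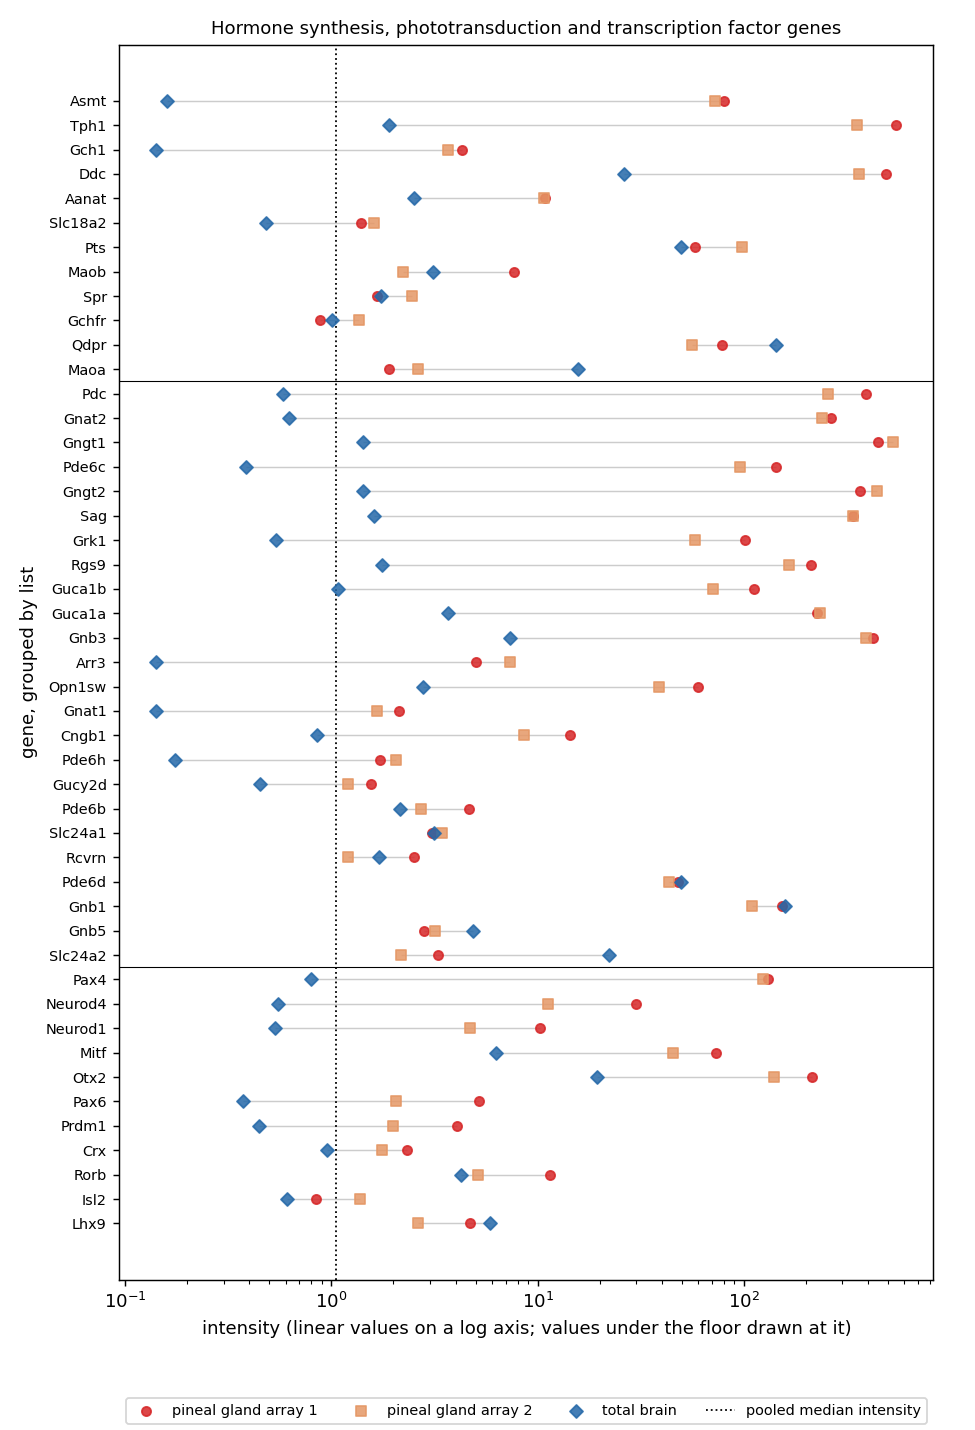
Linear intensity on a log axis for each measured gene of serotonin and melatonin synthesis (top block), phototransduction (middle) and pineal transcription factors (bottom), with the first pineal gland array as a red circle, the second as an orange square and total brain as a blue diamond. The dotted line is the pooled median, 1.05. In the upper rows of each block both pineal gland arrays stand close together and far to the right of total brain, while Gnb1, Pde6d and Slc24a1 have the 3 arrays side by side. The Slc24a1 row shows its brightest probe. Another measured Slc24a1 probe was at 5.996 and 3.151 in the pineal gland, against 0.605 in total brain.

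Genes of photoreceptor structure and the retinoid cycle included Aipl1, a chaperone of phosphodiesterase, whose probes disagree. It fell 6.72-fold by the probe used here (3.44 and 6.21 against 31.1), while another was at 439 and 343 in the pineal gland, against 0.547 in total brain, so no direction is given for it. With Aipl1 counted by the probe used here, 6 of 12 measured genes rose and 1 fell (medians 2.255 and 1.184). Of the 11 other measured genes 6 rose and 0 fell (medians 2.75 and 1.22), and the 6 rises held. Prph2, peripherin, which shapes the rim of outer segment discs, was at 366 and 266 in the pineal gland, against 0.255 in total brain, a rise of at least 297-fold. Mpp4, a scaffold of the photoreceptor terminal, was at 272 and 287 in the pineal gland, against 0.305 in total brain, a rise of at least 266-fold. Tulp1, needed for protein traffic to the outer segment, was at 35 and 19.8 against 0.277, at least 25.1-fold higher. Cacna1f, the calcium channel of the photoreceptor terminal, was at 66.7 and 51.3 in the pineal gland, against 7.60 in total brain, and rose 7.70-fold. Unc119, a carrier of lipid-modified transducin, rose 6.71-fold, with 214 and 162 against 27.8, and Impg2, of the matrix around photoreceptors, at least 3.39-fold. Impg2 was not called with the mean over all its probes (a log2 difference of 1.52). Rpe65, Lrat and Rdh12, which recycle the chromophore, were not measured, and Rbp3, the retinoid carrier between cells, was at 1.92 and 1.83 in the pineal gland, against 1.31 in total brain, without a call.

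Transcription factors of the pineal and photoreceptor lineage rose, 7 of 11 measured with 0 lower (medians 3.13 and 2.68), and 5 of the 7 held. Pax4, a homeodomain factor of photoreceptors and of pancreatic islets, was at 131 and 124 in the pineal gland, against 0.797 in total brain, a rise of at least 122-fold. Otx2, without which the mouse gland does not form, was at 214 and 140 in the pineal gland, against 19.4 in total brain, and rose 8.93-fold. Its relative Crx, which drives photoreceptor and pineal genes, was at 2.34 and 1.75 against 0.952 and did not pass the test. Neurod1 and Neurod4, helix-loop-helix factors of neurons and photoreceptors, rose at least 6.61-fold and 17.4-fold, with 10.2 and 4.72, and 29.9 and 11.2, in the pineal gland and 0.531 and 0.548 in total brain. Mitf, the factor of pigment cells, was at 73.3 and 45.5 in the pineal gland, against 6.29 in total brain, and rose 9.18-fold. Pax6 and Prdm1, of eye and photoreceptor development, rose at least 3.10-fold and 2.72-fold, and both calls were lost after quantile normalization (adjusted p of 0.0536 and 0.0533 by limma). Lhx9, Isl2 and Rorb did not pass, and Rax was not measured.

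Crx and Otx2 bind the letters TAATCC, and cyclic AMP acts through sites with the core TGACGT. For the 27 genes of the hormone, phototransduction and photoreceptor structure lists that rose, RefSeq promoters of 250 bases before to 50 bases after the gene start (build GRCr8) were found for 21. TAATCC stood on either strand in 6 of the 21 (28.6%), against 5.14% of 7551 promoters of measured genes, 7.11% of all 27457 promoters in the table, 6.90% of genes that rose and 4.42% of genes that fell. These members were chosen with their values known, so the share is a description. All 6 are shown, 5′ to 3′, because they span the pathway from opsin to hormone, with each TAATCC or its reverse complement in capitals. For Aanat, Guca1a and Opn1sw the first base of the match lies 106 bases before the gene start, for Prph2 133, for Gngt1 220, and for the pair in Cngb1 62 and 29 bases before it.
Aanat, chr10:102326073-102326372, plus strand: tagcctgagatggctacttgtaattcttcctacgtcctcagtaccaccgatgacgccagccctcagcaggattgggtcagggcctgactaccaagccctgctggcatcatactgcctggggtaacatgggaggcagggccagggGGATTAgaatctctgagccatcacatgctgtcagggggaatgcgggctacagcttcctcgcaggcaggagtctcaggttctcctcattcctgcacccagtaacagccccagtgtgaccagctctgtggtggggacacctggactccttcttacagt
Guca1a, chr9:21086392-21086691, plus strand: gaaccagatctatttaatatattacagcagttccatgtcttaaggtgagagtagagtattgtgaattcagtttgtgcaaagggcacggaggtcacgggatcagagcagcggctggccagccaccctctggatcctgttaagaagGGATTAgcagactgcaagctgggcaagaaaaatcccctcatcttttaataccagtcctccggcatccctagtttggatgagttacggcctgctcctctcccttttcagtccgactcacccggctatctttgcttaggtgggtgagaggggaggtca
Opn1sw, chr4:58945776-58946075, minus strand: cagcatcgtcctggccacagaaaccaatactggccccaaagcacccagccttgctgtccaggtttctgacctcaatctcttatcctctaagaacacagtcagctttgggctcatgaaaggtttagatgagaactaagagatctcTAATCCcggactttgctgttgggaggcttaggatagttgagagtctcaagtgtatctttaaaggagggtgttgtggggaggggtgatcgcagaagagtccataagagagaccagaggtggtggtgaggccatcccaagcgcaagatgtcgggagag
Prph2, chr9:21579025-21579324, minus strand: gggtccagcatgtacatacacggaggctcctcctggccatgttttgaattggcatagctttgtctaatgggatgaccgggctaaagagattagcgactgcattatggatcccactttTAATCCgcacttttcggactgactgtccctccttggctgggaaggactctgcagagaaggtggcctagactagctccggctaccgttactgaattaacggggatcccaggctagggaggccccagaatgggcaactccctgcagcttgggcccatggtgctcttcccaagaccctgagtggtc
Gngt1, chr4:32960695-32960994, plus strand: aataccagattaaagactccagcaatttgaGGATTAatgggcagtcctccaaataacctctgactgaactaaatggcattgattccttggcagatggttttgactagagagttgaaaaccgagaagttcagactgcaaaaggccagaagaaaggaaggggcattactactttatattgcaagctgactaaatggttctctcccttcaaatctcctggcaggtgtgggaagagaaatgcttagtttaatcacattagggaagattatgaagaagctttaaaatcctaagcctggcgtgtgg
Cngb1, chr19:9732396-9732695, plus strand: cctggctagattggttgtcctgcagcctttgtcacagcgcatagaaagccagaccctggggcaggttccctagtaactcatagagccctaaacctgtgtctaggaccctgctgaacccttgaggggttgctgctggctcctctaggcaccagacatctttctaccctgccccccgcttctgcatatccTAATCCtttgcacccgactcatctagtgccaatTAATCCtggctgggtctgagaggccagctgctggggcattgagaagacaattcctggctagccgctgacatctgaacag
The core TGACGT, read on both strands, stood in 1 of the 21, Asmt, against 11.6% of promoters of measured genes. It lay at 2 places of the Asmt promoter, with its letters in capitals here, the first of them matching on both strands.
Asmt, chr12:21423287-21423586, minus strand: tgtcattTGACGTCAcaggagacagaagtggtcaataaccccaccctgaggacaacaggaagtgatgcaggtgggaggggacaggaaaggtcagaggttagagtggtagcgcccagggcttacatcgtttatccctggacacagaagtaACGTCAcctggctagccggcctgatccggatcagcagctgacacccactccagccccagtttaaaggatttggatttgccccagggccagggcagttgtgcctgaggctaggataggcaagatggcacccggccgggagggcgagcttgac
CACGTG, the site of clock factors, was found in 0 of the 21, against 9.42% of promoters of measured genes. A match shows only that the letters are there, and its absence only that they are not in these 300 bases. Only exact letters were searched, so a near match such as TGACGCCA, which the Aanat promoter above holds, was not counted.

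Of 16 measured genes of adrenergic and cyclic AMP signalling, which drive the gland at night, 1 rose and 4 fell (medians -1.02 and -0.85). The share called was 31.25%, against 23.8% over all genes, and the rise and 2 of the falls held. Adrb1, the beta receptor through which noradrenaline acts on the pinealocyte, was under the array median in both tissues and not measured. The alpha receptor Adra1b was at 1.71 and 1.06 in the pineal gland, against 2.06 in total brain. Crem, whose short form represses cyclic AMP-driven genes at night in the rat, was the member that rose, at least 2.31-fold, with 2.67 and 2.20 in the pineal gland and 0.344 in total brain. Adcyap1r1 and Vipr2, receptors of PACAP and VIP, fell 12.4-fold and 7.48-fold, with 15.01 and 9.27, and 1.499 and 2.48, in the pineal gland and 146 and 14.4 in total brain. The cyclase Adcy5 and the anchoring protein Akap12 also fell, 6.87-fold and 7.04-fold. Akap12 was not called under either scaling or without the filter. Vipr2 was not called after quantile normalization (adjusted p of 0.065 by limma). With the mean over all probes of a gene, neither Adcyap1r1 (-0.66, adjusted p of 0.57 by limma) nor Akap12 (-1.02, adjusted p of 0.32) was called. Of 13 measured genes known in rat to be induced in the gland at night, 3 rose (Crem, Mat2a and Gem) and 2 fell (Dusp1 and Atp7b), with medians of -0.17 and -0.42, of which the first turns to 0.39 and 0.40 with the other scalings. Their share called was 38.5%, against 23.8% over all genes. Only the rise of Crem held: Mat2a and Gem were not called without the filter, nor were Dusp1 and Atp7b there or under either scaling. Gem, a small GTPase, was at 52.5 and 30.3 in the pineal gland, against 9.20 in total brain, and rose 4.33-fold. Dusp1, a phosphatase of MAP kinases, was at 7.53 and 5.32 against 24.1 and fell 3.80-fold. Nr4a1 was at 7.18 and 5.92 against 19.9, and Id3 at 47.8 and 40.6 against 19.7, neither of them called. With the hour of collection not stated, these levels have no place on the daily cycle.

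Of 17 measured clock genes, 0 rose and 4 fell, a share of 23.5% against 23.8% over all genes, with both medians at -0.42, close to that of all genes. Per1, Per2, Bmal1 and Nfil3 fell, Per1 at least 3.58-fold, Per2 4.28-fold, Bmal1 4.01-fold and Nfil3 5.90-fold. Per2, a repressor of the clock, was at 7.42 and 14.96 in the pineal gland, against 45.1 in total brain, and Bmal1, an activator, at 5.79 and 3.21 against 17.3. None of the 4 was called without the filter on low levels, and Per2 and Bmal1 were not called under either scaling. Dbp, a clock output factor, was at 247 and 217 in the pineal gland, against 146 in total brain, Nr1d1 at 16.5 and 11.6 against 14.9, and Cry2 at 53.6 and 34.0 against 57.1, with none of these called.

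Among acetylcholine receptor genes, Chrna3 and Chrnb4, which together form the ganglionic type of acetylcholine receptor, were at 123 and 84.6, and at 86.7 and 62.6, in the pineal gland, against 1.90 and 1.56 in total brain, and rose 53.7-fold and 47.1-fold. The muscarinic genes Chrm3 and Chrm4 fell at least 2.63-fold and 1.55-fold, so that 2 of 7 measured members rose and 2 fell (medians -1.22 and -0.26, the first of which becomes -0.03 with 75th percentile scaling). The rises of Chrna3 and Chrnb4 held, while neither muscarinic call was made under either scaling or without the filter. Chrna3 and Chrnb4 are also strongly expressed in the habenula, which lies beside the stalk of the gland. Of the 11 habenula genes on the array 7 were measured, the 2 receptor genes rose and 4 fell. Of the peptide genes in this list, Tac1 was at 1.43 and 0.833 in the pineal gland, against 52.5 in total brain. Tac3 was under the floor on both pineal gland arrays, against 2.41 in total brain. Calb2 was at 0.797 and 0.927 against 38.6. Pou4f1 and Gpr151, further habenula markers, were under the array median in both tissues. Whether habenula tissue lay in the pineal gland samples was not tested.

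Of 23 measured voltage-gated and cyclic nucleotide-gated channel genes, 2 rose and 11 fell (medians -1.67 and -1.37), of which 1 rise and 6 falls held. Kcna1, a potassium channel of axons, was at 1.82 and 1.43 in the pineal gland, against 97.2 in total brain, and fell 60.4-fold. Scn2a, a sodium channel of axons, was at 0.487 and 0.448 against 28.6, at least 27.2-fold lower, and the calcium channel subunits Cacnb3 and Cacnb4 were at least 22.3-fold and 19.2-fold lower. The rises were Scn7a, an atypical sodium channel, at 18.0 and 9.42 in the pineal gland, against 0.573 in total brain (at least 12.4-fold), and the calcium channel subunit Cacnb2 (at least 3.08-fold). Among the 10 channel genes not called were Kcnd2, at 44.8 and 16.2 around 26.6 in total brain, and Scn8a, at 2.97 and 2.56 against 2.28.

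Genes of the ribbon synapse and of secretion went both ways, 1 of 11 measured higher and 5 lower (medians -1.18 and -0.25). Slc17a7, which loads glutamate into vesicles, was the one that rose, 4.18-fold, with 13.98 and 12.3 in the pineal gland and 3.13 in total brain. Ctbp2, whose short form Ribeye builds the ribbon, was at 125 and 79.8 in the pineal gland, against 35.4 in total brain, and did not pass. Syp, synaptophysin, a vesicle protein of pinealocytes as well as nerve terminals, was at 158 and 117 against 81.3, also without a call. Those that fell were Cadps (14.98-fold), Stx1a (9.10-fold), Sv2a (7.06-fold), Bsn (6.05-fold) and Syn2 (3.88-fold), which release or tether vesicles in neurons. The falls of Cadps and Stx1a held. Sv2a, Bsn and Syn2 were not called after quantile normalization or without the filter, and Slc17a7 was not called without the filter (adjusted p of 0.11 by limma).

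Among ionotropic receptor genes for glutamate, GABA and glycine, 10 of 13 measured fell and 0 rose, with medians of -4.62 and, over all 25 on the array, -1.38. Of the 10 falls 8 held. Grin1, the obligatory NMDA receptor subunit, was at 0.435 and 0.931 in the pineal gland, against 151 in total brain, at least 144-fold lower. Gria2 and Gria3 of the AMPA type and Gabrb1 of the GABA type were at least 37.0-fold, 32.8-fold and 37.7-fold lower. Grin2c, an NMDA subunit, was at 75.1 and 65.1 in the pineal gland, against 75.3 in total brain, and was not called.

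Of 12 measured genes of thyroid hormone and retinoid handling, 1 rose and 2 fell (medians -0.76 and -0.69), a share of 25% called, close to the 23.8% over all genes. Rxrg, a retinoid receptor of cones, was at 106 and 68.5 in the pineal gland, against 1.95 in total brain, and rose 43.7-fold. Aldh1a2, which makes retinoic acid in the meninges, fell 8.31-fold and Crym, which binds thyroid hormone, 5.41-fold, the last a call not made under either scaling or without the filter. Of 7 measured keratin and other filament genes, Krt15 and Krt19, keratins of epithelia, rose at least 97.8-fold and 253-fold, with 126 and 83.8, and 323 and 218, in the pineal gland and -0.0663 and 0.635 in total brain. The neuronal filament genes Ina and Prph fell, 84.2-fold and 3.90-fold. For Prph, peripherin of peripheral neurons, the pineal gland arrays stood apart, at 17.4 and 151 against 200 in total brain, and its call was lost under both scalings. Vim, the filament of glia and connective tissue, was at 104 and 79.9 against 81.5.

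The 15 genes with the largest rises, ranked with total brain at the bound, held 12 that the lists above name: Gngt1, Pdc, Prph2, Gngt2, Mpp4, Krt19, Gnat2, Tph1, Sag, Pax4, Pde6c and Rgs9. The other 3 were in no list. Fabp12, a fatty acid binding protein, was at 214 and 234 in the pineal gland, against 0.586 in total brain, a rise of at least 213-fold. Miox, which opens the ring of myo-inositol, was at 202 and 192 against 1.23, a 160-fold rise. Hsbp1l1, a relative of a heat shock factor binding protein, was at 108 and 129 in the pineal gland, against 0.415 in total brain, a rise of at least 112-fold.

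Among the 15 genes with the largest falls, Mog and Mobp belong to myelin, and Bcas1, of oligodendrocytes that are making myelin, was at 0.507 and 0.519 in the pineal gland, against 215 in total brain, at least 204-fold lower. Gpd1, an enzyme of glycerol phosphate that oligodendrocytes hold, fell 173-fold and Tubb4a, a tubulin of neurons and oligodendrocytes, at least 141-fold. Cplx1, complexin, a clamp on vesicle release, was at 1.17 and 0.879 in the pineal gland, against 169 in total brain, at least 160.5-fold lower. Cpne6, a copine of neurons, was at least 161-fold lower and Grin1 is given above. Ptgds, the prostaglandin synthase of meninges and choroid plexus, was at 0.749 and 5.70 against 275 and fell 133-fold. That call was not made after quantile normalization. Serp2, Scrg1, Ttc9b, Tmem163, Tmem130 and Fibcd1 completed the 15, with falls between at least 134-fold for Fibcd1 and at least 196-fold for Serp2. For Tmem163 the pineal gland arrays stood apart, at 3.54 and 0.322 against 167 in total brain. Its call was also lost after quantile normalization.

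Markers of brain cell types fell in most lists, and in a dissected tissue fewer cells of a type and less RNA per cell cannot be told apart. Of 11 measured neuron markers, 8 fell and 0 rose (medians -4.95 and -3.61), and the 8 falls held. Thy1, a surface protein of projection neurons, was at 7.12 and 4.30 in the pineal gland, against 509 in total brain, and fell 92.0-fold. Stmn2, a tubulin regulator of growing axons, and Camk2a, the kinase of excitatory synapses, were at least 55.3-fold and 20.9-fold lower, and the neurofilament Nefl fell 32.7-fold. Not all markers followed. Slc12a5, the potassium and chloride cotransporter of neurons, was at 35.3 and 22.1 around 27.8 in total brain. Gad1, which makes GABA, was at 17.0 and 14.6 against 24.0. Eno2, an enolase that pinealocytes also hold, was at 204 and 142 against 340. None of these genes was called. Summed over the 13 neuron genes on the array, levels were 286 and 209 in the pineal gland, against 1283 in total brain. Of 9 measured markers of regional neurons, 4 fell (Drd2, Pvalb, Th and Drd1) and 1 rose (medians -1.74 and -1.35). The falls of Drd2, Pvalb and Th held, while Drd1 was called under none of the 4 settings, with adjusted p by limma between 0.11 and 0.39. Drd2, the dopamine receptor of striatal neurons, was at 0.344 and 0.297 in the pineal gland, against 21.8 in total brain, at least 20.8-fold lower. The rise was Penk, proenkephalin, 3.72-fold, with 205 and 148 in the pineal gland and 46.9 in total brain, and it was not called without the filter.

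Myelin genes fell almost throughout. Of 17 measured oligodendrocyte genes, 16 fell (medians -4.59 and -4.34), and 14 of the 16 held. Mog was at least 272-fold lower, Mobp at least 133-fold, Myrf, the factor that switches on myelin genes, 65.5-fold and Fa2h, which makes myelin lipids, 46.1-fold. Mbp, a main myelin protein, was at 0.209 and 0.204 in the pineal gland, against 42.7 in total brain. Olig1 was at 4.70 and 4.83 against 4.41 and was not called. Of 9 Schwann cell genes on the array 4 were measured, Sox10, which oligodendrocytes share, fell and the other 3 were not called. That is a share of 25% called, close to the 23.8% over all genes. Sox10 was not called after quantile normalization. Pmp22, of peripheral myelin, was at 25.4 and 14.2 in the pineal gland, against 55.7 in total brain.

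Astrocyte genes fell in 8 of 10 cases, with medians of -3.52 and -2.83. Gfap, the astrocyte filament, was at 0.553 and 0.568 in the pineal gland, against 28.4 in total brain, at least 27.0-fold lower. Aqp4, the water channel of astrocyte endfeet, was at 3.37 and 0.615 against 86.7 and fell 60.2-fold, and Aldh1l1, of folate metabolism, was at least 37.1-fold lower. Gjb6, a connexin, was at 0.563 and 3.60 against 55.3 and fell 38.9-fold. The connexin Gja1 and the bicarbonate carrier Slc4a4 were not called, with 88.1 and 39.1, and 22.6 and 8.14, in the pineal gland and 98.6 and 29.8 in total brain. Of the 8 falls, 4 held.

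**Figure D4:**
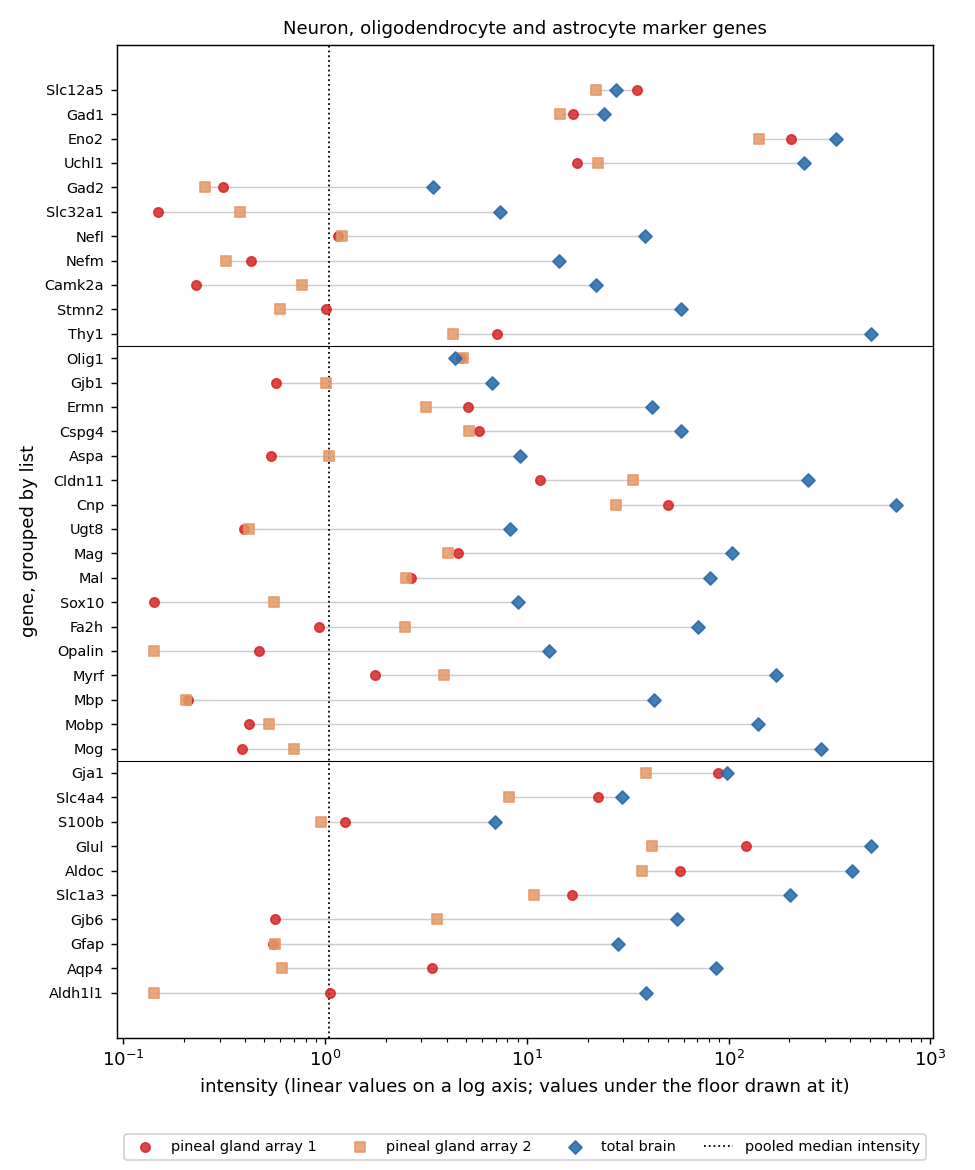
Linear intensity on a log axis for the measured marker genes of neurons (top block), oligodendrocytes (middle) and astrocytes (bottom), with the first pineal gland array as a red circle, the second as an orange square and total brain as a blue diamond. The dotted line is the pooled median, 1.05. Total brain lies to the right of both pineal gland arrays for most genes, and the 3 arrays stand close together for Slc12a5, Gad1, Olig1 and Gja1.

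Of 12 measured microglia and macrophage genes, 6 fell and 0 rose (medians -1.82 and -0.74), and 1 of the 6 falls, that of P2ry12, held. Their share called was 50%, against 23.8% over all genes. P2ry12, a receptor of resting microglia, was at 0.0221 and 0.171 in the pineal gland, against 3.27 in total brain, at least 3.11-fold lower. C1qb and C1qa, of complement, fell 6.23-fold and 4.63-fold, Ctss, a protease, 4.49-fold and Aif1 3.97-fold. Csf1r, the growth factor receptor of all macrophages, was at 156 and 128 in the pineal gland, against 231 in total brain, and Cd74, of antigen presentation, at 23.3 and 36.3 against 9.91, neither of them called. Of 5 measured mast cell genes 1 rose, Fcer1a, a chain of the IgE receptor, with 4.003 and 4.75 against 0.226, and 1 fell, Cma1, which was not called under either scaling or without the filter. Of 5 measured lymphocyte and blood genes, Cd79b, of B cells, rose and Alas2, of red cells, fell, and neither was called under either scaling. In the mast cell list and in this one the share called was 40%, against 23.8% over all genes. For Alas2 the pineal gland arrays were far apart, at 5.92 and 30.7, against 55.4 in total brain.

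Genes of the blood-brain barrier fell more often than those of endothelium at large, a difference that was not tested. Of 11 measured blood-brain barrier genes, 8 fell and 0 rose (medians -3.54 and -2.88), and 5 of the falls held. Cldn5, the tight junction protein of brain vessels, was at 11.1 and 11.8 in the pineal gland, against 167 in total brain, and fell 14.7-fold. Mfsd2a, which carries lipids and restrains transcytosis, was at least 10.3-fold lower, the glutamine carrier Slc38a5 at least 10.2-fold and the efflux pump Abcb1a at least 9.20-fold. Slc2a1, the glucose carrier of the barrier, was at 37.8 and 20.4 against 84.6 and did not pass. Of 8 measured genes of endothelium in general, 1 rose and 0 fell (medians -0.81 and -0.65). The share called was 12.5%, below the 23.8% over all genes. Emcn, a mucin of venous and capillary cells, rose at least 3.20-fold, with 3.52 and 3.22 against 0.394. Vwf was at 24.8 and 28.5 against 52.1, and Plvap, which spans the pores of fenestrated vessels, at 17.7 and 15.7 in the pineal gland, against 13.0 in total brain, without a call. Of 12 measured mural and fibroblast genes 2 rose and 1 fell (medians 0.28 and 0.09), a share of 25% called, close to the 23.8% over all genes. Anpep, a peptidase of pericytes, was at 50.1 and 28.8 against 4.29 and rose 8.85-fold, Ogn, of connective tissue, rose at least 7.47-fold, and Vtn, of pericytes, fell 17.7-fold. Anpep was not called with the mean over all its probes (0.74, adjusted p of 0.52 by limma).

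The wall of the ventricles carries motile cilia. Of 11 measured motile cilia genes, 9 fell and 0 rose (medians -2.95 and -2.94), and 4 of the falls held. Tppp3, of microtubule bundles, was at 15.9 and 28.1 in the pineal gland, against 283 in total brain, and fell 13.4-fold. Dynlrb2, a dynein light chain, was at 0.387 and 1.84 against 13.8, at least 13.1-fold lower, and Tekt4 and Hydin, of the axoneme, fell 8.95-fold and 7.71-fold. On the ependyma array the same genes stood at 1093, 574, 145 and 367. Summed over the 13 cilia genes on the array, levels were 43.5 and 53.0 in the pineal gland, against 392 in total brain.

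Of 9 measured choroid plexus genes 2 rose and 3 fell (medians -1.33 and -1.18), and both rises but 0 of the falls held. The clotting factor F5 rose at least 31.9-fold, with 50.6 and 22.2 in the pineal gland and 0.332 in total brain, and a second F5 probe was at 29.8 and 12.2 against 0.561. Kcne2, a potassium channel subunit, rose 10.6-fold, with 58.5 and 34.8 against 4.25. Ttr, the carrier of thyroid hormone that choroid plexus makes in bulk, was at 104 and 152 in the pineal gland, around 116 in total brain. The plexus genes Slc13a4, Prlr and Enpp2 fell, 10.1-fold, at least 2.66-fold and 4.32-fold, and none of the 3 was called after quantile normalization. Enpp2 was also not called with 75th percentile scaling or without the filter. Among 6 measured hypothalamic peptide genes, Hcrt, Sst, Cartpt and Npy fell and 0 rose (medians -2.10 and -0.67), with Hcrt, the wakefulness peptide, at 0.652 and 0.543 against 6.98. Of these falls only that of Hcrt held, since the others were not called under either scaling or without the filter. Galanin, Gal, was at 20.3 and 10.1 in the pineal gland, against 5.25 in total brain, without a call.

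Genes that all cells use were looked at for the scale, and their lists did not place it alike. Of 7 housekeeping and 24 oxidative phosphorylation genes, all measured, 0 were called. The housekeeping median was 0.14, with Gapdh at 658 and 624 in the pineal gland, against 1133 in total brain, Hprt1 at 178 and 110 against 60.4, and Rplp0 at 50.9 and 50.0 against 48.5. The respiratory chain median was -0.48, close to that of all genes, and it turned to 0.04 and 0.09 with the other scalings. The housekeeping median turned to 0.605 and 0.715. It lay 0.589, 0.574 and 0.548 above the median of all genes with the deposited values, quantile normalization and 75th percentile scaling. Members of the respiratory chain stayed near that median. With the deposited values they ranged between -1.28 for Uqcrc2 and 0.59 for Cox4i1.

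**Figure D5:**
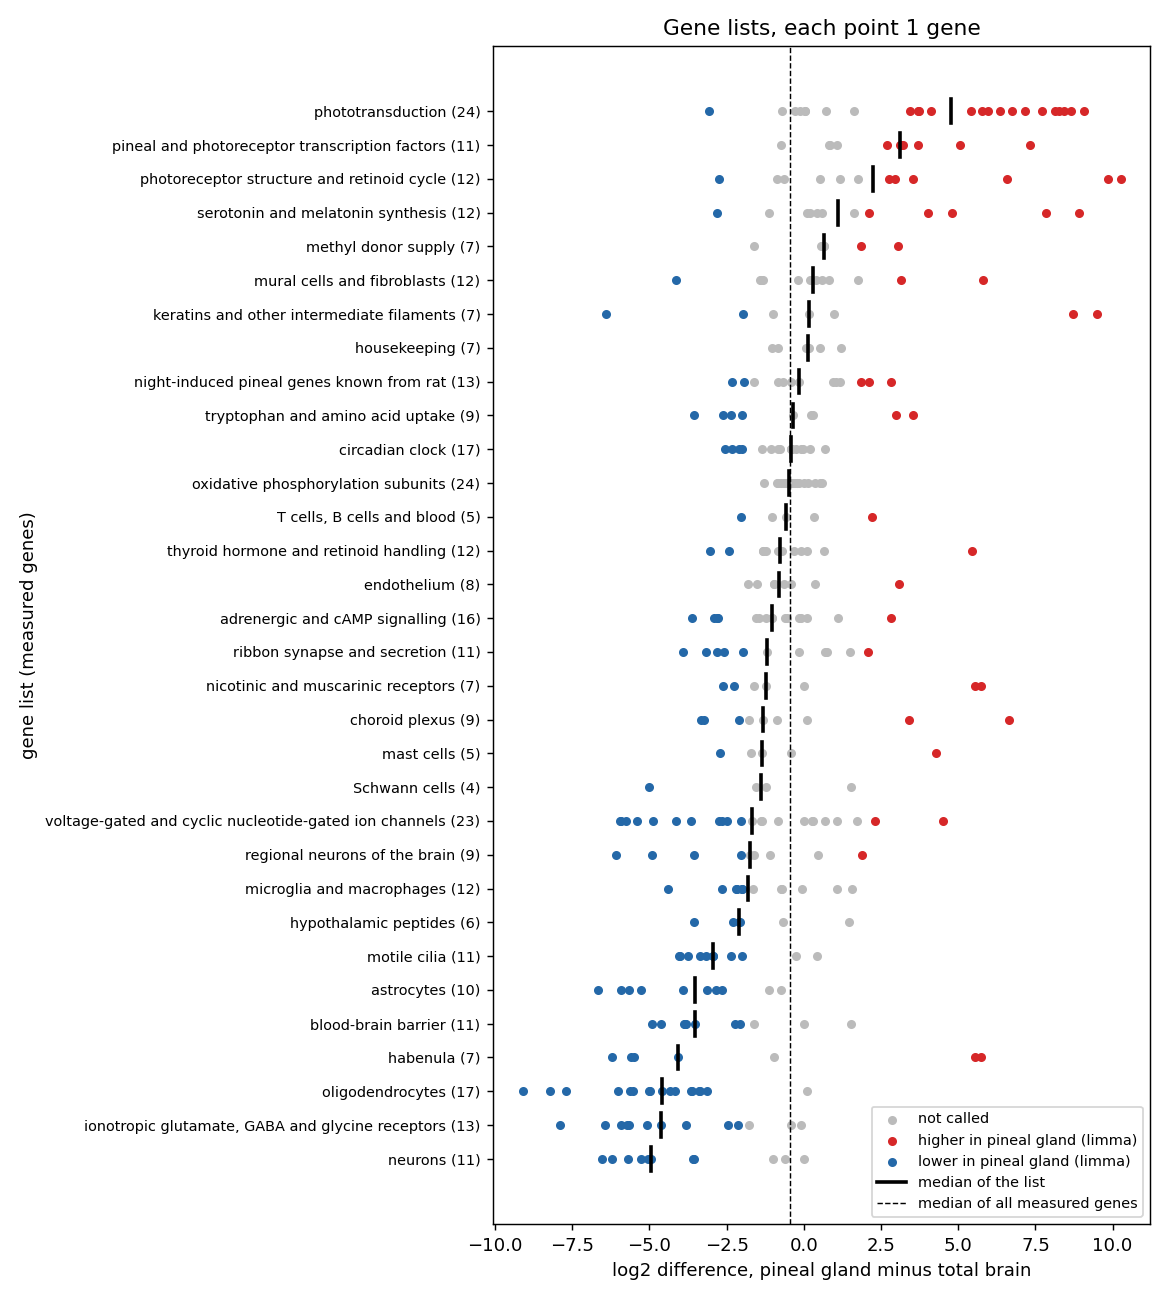
Each point is 1 measured gene, placed by its log2 difference, pineal gland minus total brain (x axis), in the list on its row, with the number of measured genes in brackets. Red points rose and blue points fell by limma, grey points were not called, the thick bar is the list's median and the dashed line the median of all measured genes, -0.45. The medians drawn are over measured genes, without the bound. That of phototransduction is 4.77 and that of neurons -4.95, while the oxidative phosphorylation genes gather at the dashed line.

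Some probes read low where the gene is known to be abundant. Snap25, of nerve terminals, was at 0.491 and 0.664 in the pineal gland and 0.570 in total brain, and Slc1a2, the main glutamate carrier of astrocytes, at 0.130 and 0.528 and at 0.249. Gria1, Cx3cr1 and Foxj1 were likewise under the array median on all 3 arrays. So was Syn1 by the probe used here, while another Syn1 probe was at 0.39 and 0.27 in the pineal gland, against 1.885 in total brain. Low values of single probes here therefore do not show that a gene is silent.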

How the data were processed

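The authors' deposited table held 1 linear intensity per probe and array, with array medians near 1, small negative values and -9999 for missing values. Per the labels' protocols the RNA was amplified, biotin-labelled and read in Cy5. The array platform, the scanner and how the background and scale were set are not given in the sources used here. No limit of detection is known, and the number of arrays limits the precision.

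Samples were grouped by the tissue label. Probes were named through the platform annotation (16865 with 1 symbol, 165 with several, 18099 not listed), and 16836 gene identifiers were found in a current table, which updated 1 symbol. The floor was 0.142, the pooled 5th percentile, log2 followed, and nothing was scaled further. A gene was represented by its brightest probe by mean log2 over the 6 arrays, among 34963 probes with a value on each. Genes were kept where the pineal gland mean or total brain reached the pooled 50th percentile (1.05). The same value serves as the bound for folds, a choice made after the data were examined. Limma 3.58.1 in R 4.3.3 (lmFit and eBayes, 6 arrays, a mean per tissue, two-sided, Benjamini-Hochberg adjustment over measured genes) was the test. It was run on simulated data with the same spread for every gene and array and with changes only in brighter genes. Such data cannot check the assumption that the lone total brain array varies like the pineal gland pair.

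Members and gene lists were chosen with earlier results of these data known. Named genes were the 4 markers, the 15 largest rises and falls among calls with the bound applied and both pineal gland arrays on the same side, the 4 largest called members of each list, and all measured members of the hormone and phototransduction lists. Other list members are given by value and were chosen after their values were seen. Alternatives covered scaling, filter, floor, probe choice, variance trend and each pineal gland array left out. Promoters are RefSeq's (GRCr8), matched by symbol or gene identifier. Probes without a single symbol were counted only.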

Additional observations from a re-analysis of the deposited data

Results flagged for a closer look

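Probes without a single gene symbol also carried large differences. Of 18167 such probes with a value on all arrays, 9177 were measured, 1189 (13.0%) of them at least 4-fold higher and 1501 (16.4%) at least 4-fold lower in the pineal gland than in total brain, with both pineal gland arrays on the same side. They were looked at because no comparison above uses them, and they have no replicate check on the total brain side. Among named genes the shares were 6.71% and 14.2%.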

How the results depend on the processing

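With the deposited values limma called 696 genes higher and 1464 lower. Quantile normalization gave 632 lower, 75th percentile scaling 816 lower and 961 at least 4-fold higher, leaving out the filter 338 higher and 653 lower, and the filter at the pooled 75th percentile 385 higher and 296 at least 4-fold higher, against 609. Raising values under the pooled median to it left 378 at least 4-fold higher. The stricter filter tests fewer genes (5986). The standard error, 0.72 for every gene with the deposited values, ran between 0.42 and 2.65 after quantile normalization. It ran between 0.46 and 2.21 with 75th percentile scaling and between 0.62 and 2.22 without the filter. Leaving out the filter changes no difference, only the standard error and the number of genes tested (12167). The cause of the other shifts was not tested. With the first pineal gland array left out, 558 genes were at least 4-fold higher and 1542 lower, and with the second left out 729 and 1162. Of the 2160 calls, 1153 were kept after quantile normalization, 1493 with 75th percentile scaling, 989 without the filter and 1978 with an intensity trend, and 0 turned under these 4. The mean over all probes of a gene turned 10 calls. It also lost others named above, among them Slc6a6, Impg2, Bsn, Per2, Slc13a4 and Atp7b. A rule added after seeing the data, the brightest probe by linear intensity, turned 1. Aipl1 reversed under both, to 1.56 and 9.47 on the log2 scale, because its probes disagree. Aanat was not called without the filter, where its adjusted p by limma was 0.10. A floor at the pooled 1st percentile was not run, because that percentile is negative (-0.0359) and has no log. No paired analysis was possible because only the pineal gland has numbered replicates. Intensities near the array median limit what the falls of dim probes can show.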
